A study of Caenorhabditis elegans with 4 samples.

Results

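Chromosome III of Caenorhabditis elegans held 729 MRG-1 peaks in the first of the replicate libraries and 636 in the second, out of 3158 and 2875 nuclear peaks. Its members were all peaks that the deposited lists place on chromosome III, so the choice used position and no measured value. The peaks come from chromatin immunoprecipitation and sequencing (ChIP-seq) of whole early embryos of the wild-type laboratory strain N2, a mixed population of males and hermaphrodites at 20 °C, with the antibody SDQ3927 against MRG-1. All groups had this strain, stage and genotype: 2 MRG-1 ChIP libraries, whose peak lists are described, and 2 input DNA libraries, whose values were not analysed here. Embryos were bleached out of gravid adults, so each library pools many embryos and all of their cell types. The labels number the ChIP libraries but do not state separate cultures for them. Variation between the replicates may therefore be technical only, and read depth is unknown.

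MRG-1 is a chromodomain protein of the MRG15 family. The mammalian member MRG15 binds histone H3 methylated at lysine 36, a mark of transcribed gene bodies, and serves in histone acetylation and deacetylation complexes. In C. elegans MRG-1 is supplied by the mother and is needed for the germ line. The chromosomes of this worm have no single centromere. Autosomes have a central region of low recombination with many conserved and essential genes, and arms of high recombination that are richer in repeats.

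Positions are those of WormBase WS220, counted from 1, and the span of chromosome III was taken to end with its last peak in any list, at 13783737. No annotation or genome of this build was used, so regions are given by position, with no gene and no sequence. With 1 group of 2 libraries no test between samples was possible. Values are given for each replicate or as mean ± SD (n = 2), and differences between chromosomes, zones or windows were not tested.

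MRG-1 peaks were dense on III, at 52.9 and 46.1 per Mb in replicates 1 and 2, and covered 2.42 Mb and 2.33 Mb of it. Coverage is the share of bases inside a peak, and it was 17.5% and 16.9%. Chromosome I, the autosome nearest to it, was covered at 15.4% and 14.7%. The difference of III minus I was therefore 2.16 and 2.21 percentage points (2.19 ± 0.04), with the same sign in both libraries. The 4 other autosomes together were covered at 10.3% ± 0.425, which was 6.90 ± 0.0423 percentage points below III. The excess over the other autosomes lay in the number of peaks more than in their size, with 49.5 ± 4.77 against 31.0 ± 2.92 peaks per Mb and a median width of 2606 ± 150 bp against 2522 ± 157 bp. The width difference of III minus the other autosomes was small but had the same sign in both libraries, 89 bp and 78.5 bp. On chromosome II, however, the median width was above that of III in both libraries, 2532.5 and 2868 bp against 2500 and 2711.5 bp. High density was not particular to III, since chromosome I held 47.8 and 43.6 peaks per Mb. III exceeded I by 5.12 and 2.55 peaks per Mb and by 143.5 and 224.5 bp in median width.

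Peak widths on III spanned a wide range. The middle of the distribution, from the 25th to the 75th percentile, ran from 1564 to 4304 bp in replicate 1 and from 1666 to 4661 bp in replicate 2, and the extremes were 987 and 20450 bp in replicate 1 and 979 and 18845 bp in replicate 2. Peaks of 5000 bp or more numbered 135 of 729 (18.5%, against 16.9% of all nuclear peaks) in replicate 1 and 145 of 636 (22.8%, against 18.9%) in replicate 2. These broad peaks held 41.2% and 49.3% of all covered bases on III. On the other autosomes together 17.4% and 19.9% of peaks had 5000 bp or more, and on chromosome II 20.7% and 22.8%. A high share of broad peaks was therefore not particular to III. The widest peak of each nuclear list lay on III.

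The centre of III, its middle 50%, was covered more than either arm, the outer 25% on each side. In replicate 1 the left arm, centre and right arm were covered at 11.1%, 20.9% and 17.4%. In replicate 2 the same zones were covered at 7.56%, 23.5% and 13.0%. The order was the same in both lists, with the centre highest and the left arm lowest, while replicate 2 showed the steeper profile. The left arm was the sparser arm in peak number too, at 40.0 and 27.6 peaks per Mb against 61.2 and 43.2 in the right arm. In replicate 1 the right arm had more peaks per Mb than the centre (55.1), and in replicate 2 it had fewer (56.9 in the centre), so the rank of the centre in peak number was not stable between replicates.

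Besides coverage, peak width set the centre apart in both libraries. The median width was 3041 and 3107 bp in the centre, 2049 and 2178 bp in the left arm and 2002 and 2190 bp in the right arm. The arms did not differ in width beyond the spread between replicates. Broad peaks were found at 15.0 ± 2.15 per Mb in the centre, 4.06 ± 1.23 in the left arm and 6.53 ± 1.03 in the right arm, so the centre-to-arm ratio of broad peaks was 2.21 in replicate 1 and 3.68 in replicate 2. Neither trait was particular to III. The centre-to-arm ratio of median width was 1.50 and 1.42 on III and 1.44 and 1.45 on the other autosomes together. For broad peaks the other autosomes together had ratios of 1.67 and 2.96, and V alone exceeded III, with 2.55 and 5.50.

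The highest-scoring peaks were not concentrated in the centre. Peaks were ranked by the authors' score within each whole nuclear list, and those in its top 10% were counted on III. There were 69 of 729 (9.47%) in replicate 1 and 62 of 636 (9.75%) in replicate 2, against 10.0% of all nuclear peaks in each replicate, a share near the background. They stood at 4.21 ± 1.03 per Mb in the left arm, 4.93 ± 0.41 in the centre and 4.93 ± 1.23 in the right arm. The centre-to-arm ratio of their density was 0.865 in replicate 1 and 1.38 in replicate 2, on either side of 1, whereas that of coverage was 1.46 and 2.29. The other autosomes together had ratios of 0.878 and 1.54 for top-scoring peaks and of 1.26 and 2.07 for coverage, but they differed among themselves. On I the top-scoring peaks had 0.868 and 1.39, much like III, and on IV 0.512 and 1.00. On II the ratios were 1.03 and 1.82, and on V they were 1.47 and 3.00, near the 1.56 and 2.84 of its coverage.

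**Figure D1:**
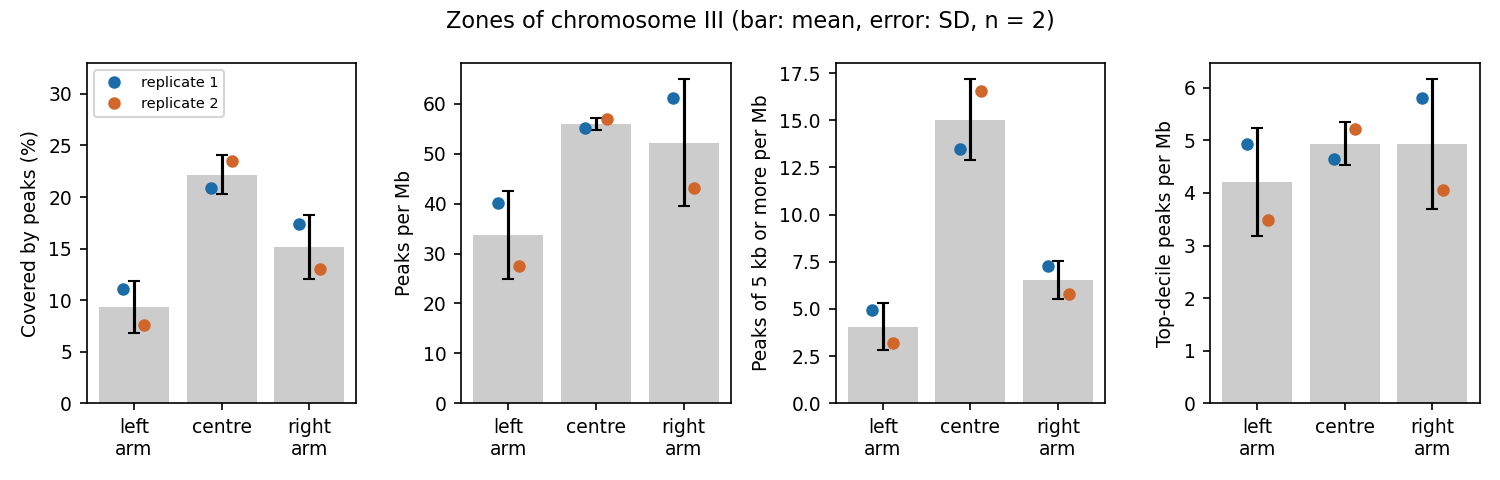
Zones of chromosome III, with the share of bases covered by peaks (%), all peaks per Mb, peaks of 5 kb or more per Mb and peaks in the top 10% of the list by score per Mb. Bars are means, error bars SD (n = 2) and points the replicates; coverage and broad peaks are highest in the centre in both replicates (broad peaks 15.0 ± 2.15 per Mb), while top-scoring peaks stand at 4.21 to 4.93 per Mb in all 3 zones.

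Along the chromosome, megabases 4 to 6 formed the most covered part, with means of 26.9% ± 2.35 for the fifth megabase and 26.4% ± 2.31 for the sixth. The next megabase fell back to 16.6% in replicate 1 and 17.3% in replicate 2, with 48 and 42 peaks against 66 and 60 before it. Coverage then returned to 21.9% ± 1.77 from 7 to 8 Mb and 24.1% ± 2.74 from 8 to 9 Mb. A dip within the centre was thus present in both replicate lists. It was not clear in the series-wide list, a further deposited list introduced below. Coverage there was 22.2% from 5 to 6 Mb and 18.5% from 6 to 7 Mb, then 18.1% and 19.7% in the following megabases. From 6000001 to 6100000 that list covered 15.4%, against 2.26% in replicate 1 and 1.74% in replicate 2. The least covered megabase by the mean was that from 1 to 2 Mb, with 10.9% in replicate 1 and 6.24% in replicate 2, although it held 7 and 5 of the top-scoring peaks, more than the densest megabase from 4 to 5 Mb, which held 3 and 4.

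At a resolution of 100 kb the profile was uneven. The 137 full windows had a median coverage of 16.4% in replicate 1 and 14.5% in replicate 2, with maxima of 43.9% and 45.2%. By the mean of the replicates, 20 windows reached 30% or more and 16 stayed under 5%. On the other autosomes 26 of 685 windows (3.80%) reached 30%, against 14.6% on III, and 223 (32.6%) stayed under 5%, against 11.7% on III. III supplied 10 of the 20 most covered of 999 nuclear windows while making up 13.7% of them.

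The 5 most covered windows were picked by the mean of the replicates. The first, from 9700001 to 9800000, was covered at 40.7% in replicate 1 and 43.5% in replicate 2 by 8 and 11 peaks. The second, from 7100001 to 7200000, reached 38.1% and 45.2% with 11 and 7 peaks. Each had a neighbour of ordinary coverage on its left, at 13.0% ± 0.888 and 16.3% ± 0.144. Their right neighbours were more covered, at 35.2% ± 0.182 and 24.2% ± 2.26. The other 3 of the 5 started at 4500001 (33.9% and 44.3%), 10400001 (42.4% and 33.6%) and 4700001 (36.2% and 39.3%). Since the same 2 replicates were used to pick them, the height of these windows above the median window is part of the choice.

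Some windows had no peak at all. The windows from 2200001 to 2300000 and from 8500001 to 8600000 were empty in both replicates. The first has neighbours covered at 14.5% ± 11.1 and 13.3% ± 3.66, and the second sits in the centre between windows covered at 20.8% ± 0.361 and 28.0% ± 4.67. The series-wide list, a deposited list for the whole series with no replicate of its own, held 2 narrow peaks in each of these windows, covering 0.46% and 0.515%. The other windows of lowest mean coverage started at 11600001 (1.06% and 1.03%), 2900001 (2.11% and 0%) and 1700001 (1.48% and 1.99%). By the mean of the replicates the steepest step between neighbours was that from 38.0% to 8.31% at 10500001, with changes of -32.8 and -26.6 percentage points. Replicate 2 had larger steps elsewhere, among them a rise of 36.4 points at 9400001, where replicate 1 rose by 15.8.

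**Figure D2:**
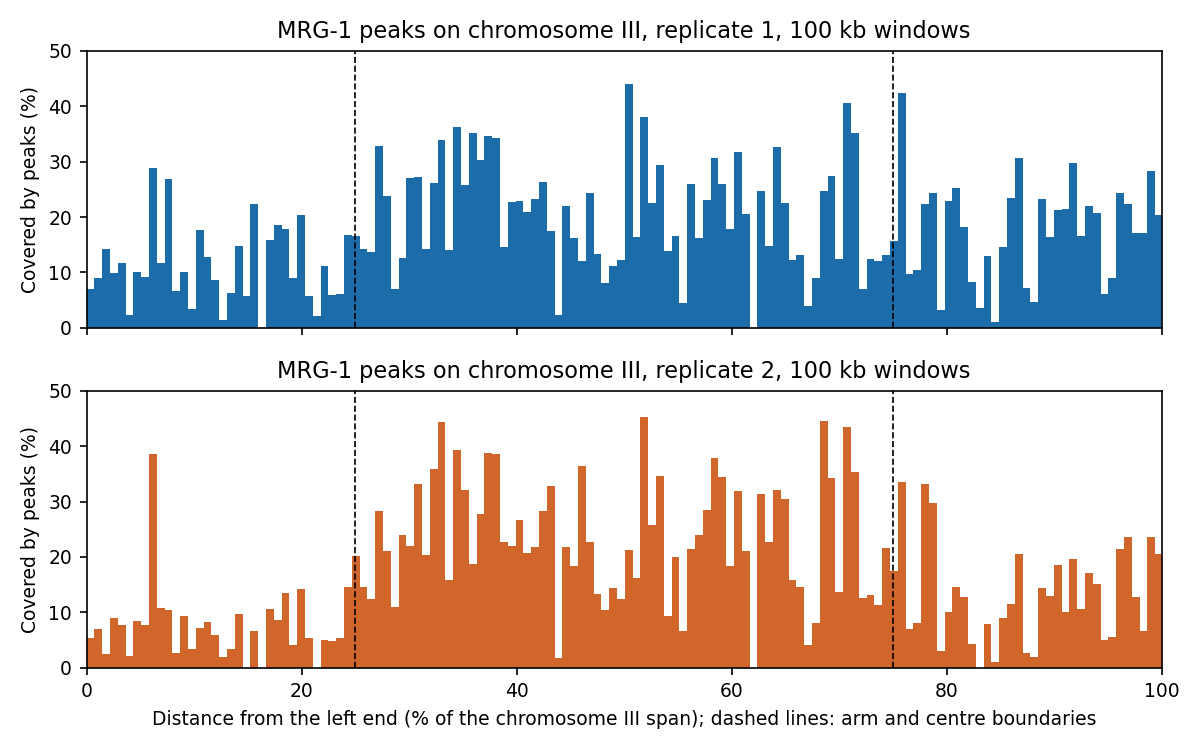
Share of each 100 kb window of chromosome III inside MRG-1 peaks (%, bars) against the distance from the left end as a percentage of the span, for replicate 1 (top) and replicate 2 (bottom), with dashed lines at the boundaries of arms and centre. Windows range from 0 to 43.9% in replicate 1 and to 45.2% in replicate 2, and windows of high and of low coverage lie side by side in the centre in both.

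Coverage of the windows was similar in the replicates, with rank and linear correlations of 0.84 (Spearman) and 0.82 (Pearson) over 138 windows, the last of them shorter. This is a description across windows of the same 2 libraries, which are not independent. The similarity of neighbouring windows was weaker, with a rho between one window and the next of 0.22 in replicate 1 and 0.47 in replicate 2. The windows with the largest difference between replicates lay mostly in the centre. From 6300001 to 6400000 the coverage was 12.1% in replicate 1 and 36.4% in replicate 2, and from 9400001 to 9500000 it was 24.8% and 44.5%. Replicate 1 was the higher one from 6900001 to 7000000 (43.9% against 21.3%), from 4900001 to 5000000 (35.2% against 18.6%) and from 1000001 to 1100000 (26.9% against 10.4%). In each of these 5 windows a broad peak or several neighbouring peaks of one list had no counterpart, or a narrower one, in the other.

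Peaks on III stood in runs. A run was defined as 3 or more successive peaks with at most 5 kb between one and the next. Runs held 338 of 729 peaks (46.4%, against 36.7% of all nuclear peaks) in replicate 1 and 262 of 636 (41.2%, against 29.9%) in replicate 2. Chromosome I had 42.8% and 38.7% of its peaks in runs, and the other autosomes together 36.1% and 29.7%. The higher share goes with the higher number of peaks per Mb on III, and the part of density in it was not tested. The 83 runs of replicate 1 had a median of 4 peaks and a median span of 15172 bp, and the 70 runs of replicate 2 had a median of 3 peaks and 15045 bp. Peaks filled a median of 76.8% and 80.1% of the run they belonged to, and the lowest filled shares were 45.4% and 44.9%. Interruptions of at most 5 kb are part of the definition of a run.

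The runs with most peaks lay in the left arm and in the centre. In replicate 1 they spanned 2165331 to 2192877 (9 peaks, 27547 bp), 4166846 to 4208629 (9 peaks, 41784 bp) and 3695015 to 3738570 (8 peaks, 43556 bp). The last was tied with the run from 5151872 to 5197837, and ties were broken by position. Replicate 2 had 5 peaks over the second and 7 over the third, filling 66.2% and 72.5% of them, against 73.8% and 82.9% in replicate 1. The first differed, since replicate 2 had only 2 peaks there and filled 12.8% of a stretch that replicate 1 filled to 60.6%, with peaks of low rank (median percentile 23.0). In replicate 2 the runs with most peaks spanned 4555011 to 4598839 and 9746571 to 9785246 with 7 peaks each, and 879957 to 912423, which was the leftmost of 4 runs with 6. Replicate 1 had 5, 6 and 5 peaks over them and filled 57.4%, 79.3% and 58.6%, against 78.4%, 79.9% and 86.0% in replicate 2.

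Peaks inside and outside runs had similar widths. In replicate 1 the median width was 2532 bp inside runs and 2495 bp outside them, and replicate 2 had medians of 2722 and 2691 bp. The share of peaks of 5000 bp or more differed in opposite directions, with 16.9% inside and 19.9% outside runs in replicate 1 and 24.8% and 21.4% in replicate 2. Their median score percentile was slightly lower, at 48.3 against 55.3 and 49.5 against 55.0. Of the replicate 1 runs 41 of 83 (49.4%) met a run of replicate 2, and 42 of 70 (60%) replicate 2 runs met one of replicate 1. These shares and the correlations of window coverage are unlike measures, so the likeness of runs and that of coverage were not compared.

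The gaps between successive peaks had a median of 6010 bp in replicate 1 and 7277 bp in replicate 2. On chromosome I the medians were 6925 and 8641 bp, and on the other autosomes together 9229 and 13752 bp. Of the gaps on III, 344 of 728 and 284 of 635 were 5 kb or less, and 57 in each list were 50 kb or longer. Replicate 1 had its longest gap at 647948 to 782178 (134 kb), whereas the longest of replicate 2 lay at 2815982 to 3067477 and measured 251 kb. In that last stretch replicate 1 had 3 peaks of its own, starting at 2946964, 2954827 and 3010962, at score percentiles of 8.09, 5.59 and 50.0.

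Long stretches without a peak in either replicate numbered 47 at 50 kb or more, 19 in the left arm, 18 in the centre and 10 in the right arm, and made up 26.8% of the span. The 5 longest ran from 647997 to 782124 (134 kb), 6733940 to 6865558 (132 kb), 2816037 to 2946963 (131 kb), 1657382 to 1776683 (119 kb) and 912424 to 1029084 (117 kb). The second lies in the centre, within the megabase of reduced replicate coverage, and the other 4 lie in the left arm. The series-wide list had 0 peaks in the fourth, 1 to 3 in the first 3, covering at most 0.822% of a stretch, and 9 in the fifth, covering 4.13%.

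Score and width rose together on III. Across peaks, Spearman's rho between width and score percentile was 0.81 in replicate 1 and 0.80 in replicate 2, which describes peaks of 1 library each. Broad peaks had a median percentile of 84.1 and 83.6, and 47 of 135 and 48 of 145 of them were in the top 10% of the list. The widest peaks departed from this relation. Peaks of 10 kb or more numbered 17 and 23, with a median percentile of 76.0 and 75.1, and 3 of them in each list ranked below the middle.

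**Figure D3:**
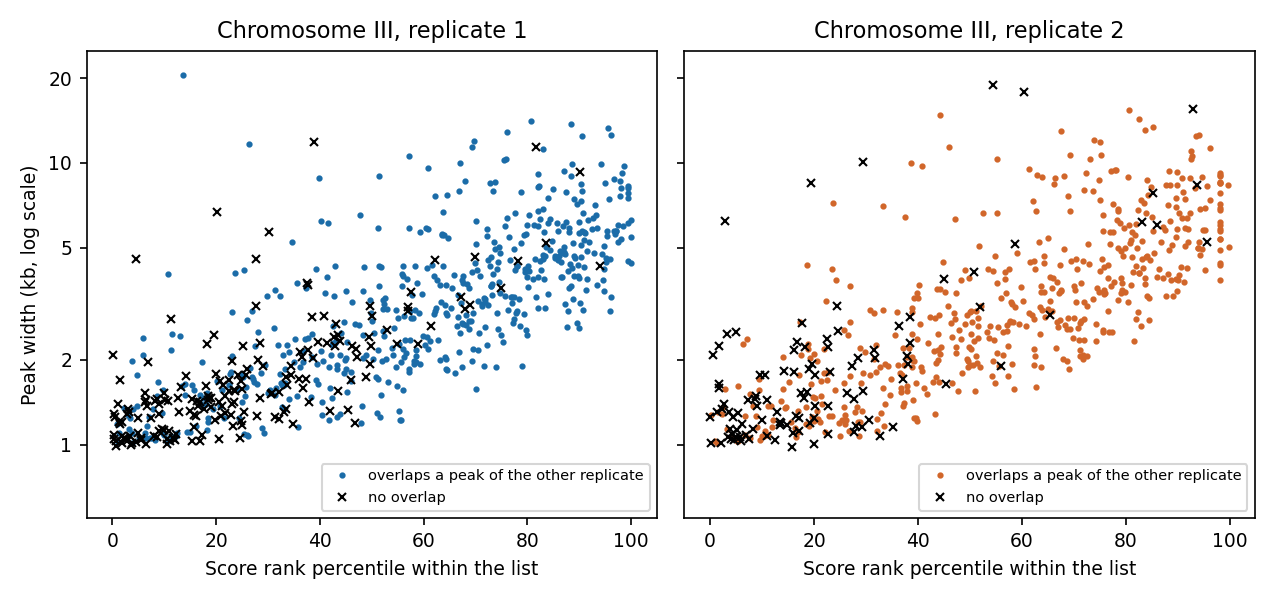
Width of each chromosome III peak (kb, log scale) against its score rank percentile within the whole nuclear list, for replicate 1 (left) and replicate 2 (right). Coloured dots overlap a peak of the other replicate by 1 bp or more and black crosses do not; crosses crowd at low rank and width (median widths of 1465 and 1502 bp), and a few broad peaks stand far above the trend at low rank.

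The highest-scoring shared regions lay in both arms and the centre. Peaks of the 2 lists were paired where each was the best match of the other by shared bases, which gave 492 pairs. The pair with the highest mean percentile spanned 1616194 to 1622443 in replicate 1, where it had the highest score of that list (3233), and 1617378 to 1622301 in replicate 2 (score 3100). Scores of 3100 or more were reached by 9 III peaks in replicate 1 and 22 in replicate 2. These were 25% of 36 and 22.2% of 99 nuclear peaks at that level. III held 729 of 3158 and 636 of 2875 nuclear peaks of any score, so both shares were near its share of all peaks. Since many scores are tied at 3100, the order among these regions is loose.

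In 6 pairs both members reached 3100. Besides the pair already given they spanned, in replicate 1, 1197072 to 1204576, 2784574 to 2789059, 8443012 to 8450815, 9517003 to 9525152 and 13767500 to 13773596. Their widths were 4486 to 8150 bp in replicate 1 and 3830 to 8981 bp in replicate 2. How closely their edges coincided varied. The pair at 2784574 started 16 bp apart and its end moved by -140 bp from replicate 1 to replicate 2, and the pair at 8443012 was shifted by 215 bp at its start and 223 bp at its end. The pair at 9517003 started 7 bp apart but ended 838 bp apart. The starts of the other 3 moved by more, by 3719 bp at 1197072, 1184 bp at 1616194 and -660 bp at 13767500.

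The next 4 pairs by mean percentile spanned, in replicate 1, 5674867 to 5680838, 13458370 to 13467554, 5168940 to 5177109 and 82759 to 88784. All 4 had a score of 3100 in replicate 2 and scores from 2486 to 2854 in replicate 1. The outermost peaks of the chromosome were among these strong regions at either end. The first peak of III, at 82759 in replicate 1 and 83361 in replicate 2, ranked at percentiles of 97.4 and 98.1, and the last, ending at 13773596 and 13773645, at 99.3 and 98.1. The bases before the first peak, 82.8 kb and 83.4 kb, had no replicate peak, while the series-wide list started at 25605.

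The widest shared regions covered a range of ranks. By mean width the first spanned 13287793 to 13308242 (20450 bp) in replicate 1 and 13293924 to 13301328 (7405 bp) in replicate 2, with percentiles of 13.6 and 96.1. The replicates thus placed a broad, low-scoring peak and a narrower, high-scoring one over the same region. The other 4 had widths that differed less. They spanned in replicate 1 4581805 to 4595921 (14117 and 12058 bp), 8159276 to 8172148 (12873 and 13090 bp), 10452526 to 10463720 (11195 and 14294 bp) and 7157611 to 7167330 (9720 and 15360 bp), and ranked at mean percentiles from 77.3 to 89.6.

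How far the replicates marked the same places on III was examined by overlap of at least 1 bp. In replicate 1, 545 of 729 peaks (74.8%, exact 95% interval 71.4 to 77.9) overlapped a replicate 2 peak, against 73.4% of all nuclear peaks. In replicate 2, 528 of 636 (83.0%, 79.9 to 85.9) overlapped a replicate 1 peak, against 79.8%. The intervals treat peaks as independent, although many stand in runs, and do not measure variation between libraries. Both shares were near or slightly above the background. The lists had 1.86 Mb in common on III out of 2.89 Mb in either, a Jaccard index of 0.643 against 0.630 over all nuclear chromosomes.

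Paired peaks had similar size in the 2 libraries. The median ratio of widths, replicate 2 over replicate 1, was 1.00, with 247 pairs wider in replicate 2 and 244 in replicate 1, and rho was 0.83 for width and 0.82 for score across the 492 pairs. Starts differed by a median of 144 bp and ends by 145 bp. Both edges lay within 100 bp in 79 pairs (16.1%) and within 500 bp in 235 (47.8%). A peak of one list was split in the other in some places, with 39 replicate 1 peaks over 2 or more replicate 2 peaks and 52 replicate 2 peaks over 2 or more of replicate 1.

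Peaks found in 1 replicate were mostly narrow and of low score. The 184 such peaks of replicate 1 had a median width of 1465 bp and a median percentile of 21.7, against 3147 bp and 63.5 for the others. The 108 of replicate 2 had 1502 bp and 17.6, against 3004 bp and 61.1. They held 14.9% and 11.7% of the covered bases. In the lowest 25% of the score ranking 40.4% and 52.3% of III peaks were shared, and in the highest 25% it was 97.4% and 96.6%. Wider peaks have more bases that can overlap, and the part of width in this relation was not tested.

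Unshared peaks of the 2 libraries lay in different zones. In replicate 1, 141 of 349 arm peaks and 43 of 380 centre peaks had no partner, so 59.6% of arm peaks and 88.7% of centre peaks were shared. In replicate 2 the order was the opposite, with 26 of 244 arm peaks and 82 of 392 centre peaks without a partner, and shares of 89.3% and 79.1%. The contrast sat among peaks of low score. Among those at or below the middle of the score ranking, 34.8% of replicate 1 peaks in the arms were shared and 75.8% in the centre, against 83.3% and 58.0% in replicate 2. Above the middle all 4 shares lay between 92.1% and 97.4%. The other autosomes together had the same pattern, where the arm and centre shares were 58.1% and 88.1% in replicate 1 and 90.5% and 78.1% in replicate 2. Replicate 1 therefore listed more weak peaks in the arms and replicate 2 more in the centre, and the zone results above are given for each library for that reason.

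**Figure D4:**
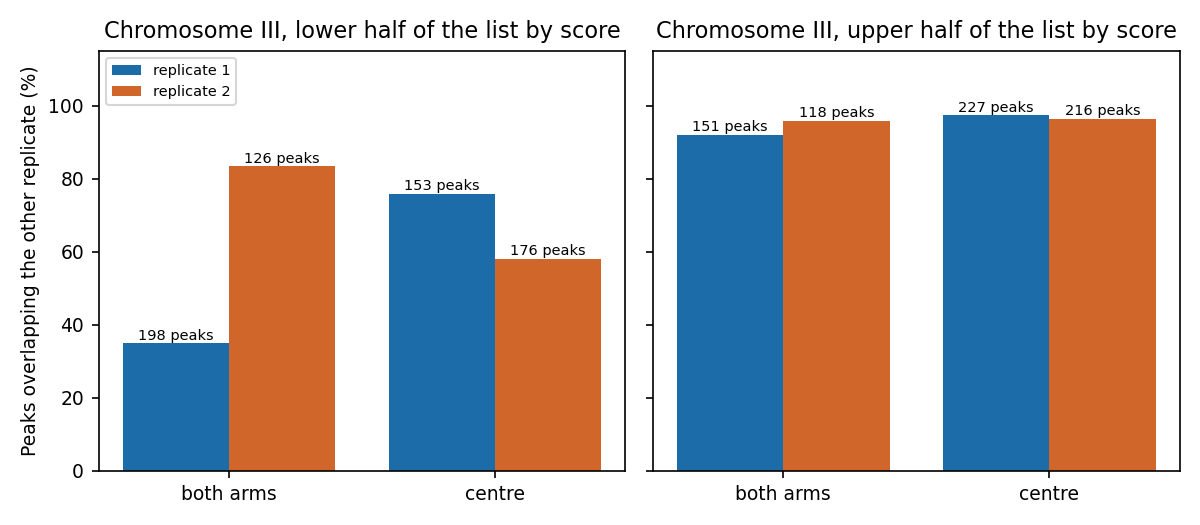
Share of chromosome III peaks that overlap a peak of the other replicate (%), for arms and centre, among peaks at or below the middle of the score ranking (left) and above it (right), with the number of peaks over each bar. Among lower-scoring peaks replicate 1 is low in the arms (34.8%) and replicate 2 in the centre (58.0%), while above the middle all bars lie between 92.1% and 97.4%.

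A few strong or broad peaks were also missing from one list. Among III peaks in the top 25% by score, 5 of 189 in replicate 1 and 6 of 174 in replicate 2 had no partner. The share over all nuclear peaks was not computed for these. The unshared strong peaks of III measured from 4318 to 11365 bp and from 5228 to 15562 bp. In replicate 1, 3 of them stood side by side from 6949250 to 6974744, a block of 25.5 kb that lies in a stretch of 29.6 kb free of replicate 2 peaks. In replicate 2, 2 were neighbours from 3394758 to 3406346, the second with a score of 2925 (percentile 95.5), inside 24.0 kb free of replicate 1 peaks. Unshared peaks also included very broad ones. The widest in replicate 2 spanned 6370605 to 6389449 (18845 bp) and 9453393 to 9471190 (17798 bp) at percentiles of 54.4 and 60.4, followed by the peak from 10736213 (15562 bp) at 92.9. In replicate 1 the widest were those from 4910969 (11851 bp) at 38.9 and from 6963380 (11365 bp) at 81.7.

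The series-wide list had peaks at all of these strong or broad unshared peaks. Series-wide peaks covered 67.8% to 89.0% of the 5 strong replicate 1 peaks and 70.4% to 89.1% of the 6 of replicate 2. Over the unshared peaks of 5000 bp or more, 6 in replicate 1 and 12 in replicate 2, the median fill was 77.2% and 79.7%, close to the 79.9% and 77.7% of shared peaks of that size. Narrower unshared peaks were filled less, at a median of 36.7% and 38.3%, against 67.1% and 68.8% for narrower shared ones. The way replicates entered the series-wide list is not given in the sources used here, so its peaks are no independent support.

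Within single replicate peaks the series-wide list showed substructure. Its 3375 peaks on III broke 515 of 729 replicate 1 peaks (70.6%, against 66.9% of all nuclear peaks) and 445 of 636 replicate 2 peaks (70.0%, against 67.5%) into 2 or more pieces. The mean was 2.82 pieces per peak in replicate 1 and 3.03 in replicate 2. A wider peak has room for more pieces, so growth of their number with width is at least partly fixed by construction. The number of pieces grew with width, from a median of 1 in peaks under 2000 bp in both lists to 5 and 6 in peaks of 5000 bp or more. In these broad peaks the pieces together filled a median of 79.9% and 77.7% of the width, and the largest piece filled 40.1% and 36.7%. Most broad peaks on III were thus several series-wide peaks separated by short spaces.

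The peaks with most pieces show the range. In replicate 1 the 20450 bp peak from 13287793 held 15 pieces, and the peaks from 3714820 to 3726524 and from 13639673 to 13653404 held 12 each, with fills of 58.0% and 71.6%. In replicate 2 the 17798 bp peak from 9453393, which had no partner in replicate 1, held 15, the peak from 7224199 to 7235569 held 13 and that from 4853905 to 4865762, tied with the peak from 10452541, held 12. Of the 3375 series-wide peaks on III, 1539 (45.6%) overlapped peaks of both replicates and 939 (27.8%, against 31.5% of all nuclear ones) overlapped neither. Those overlapping neither were narrow, with a median of 229 bp, and 651 of them lay within 5 kb of a replicate peak.

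**Figure D5:**
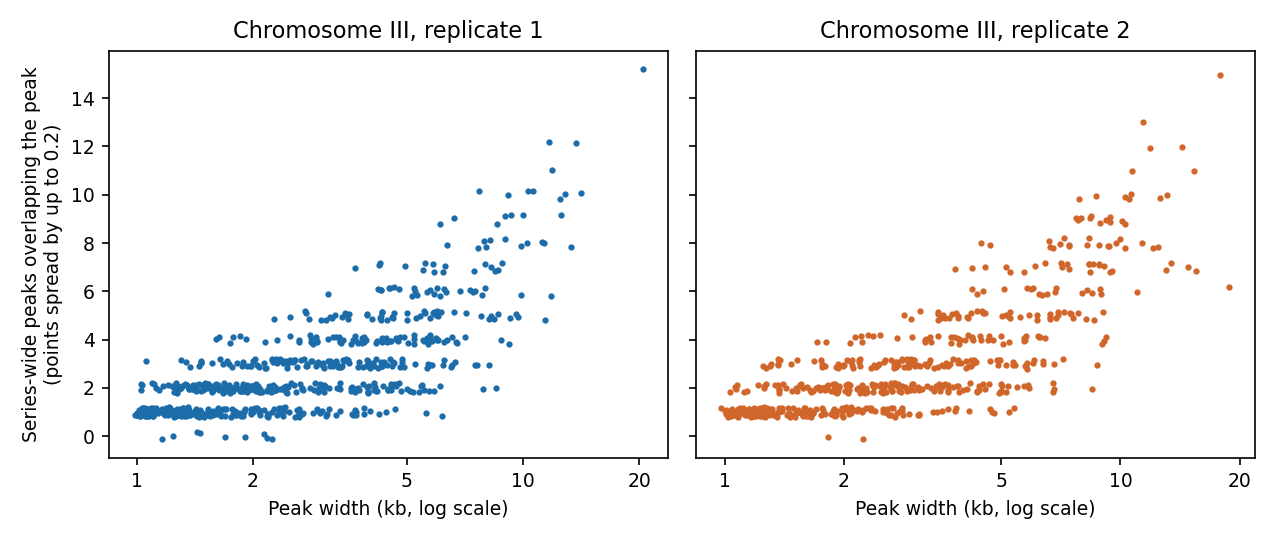
Number of series-wide peaks that overlap each chromosome III replicate peak against the width of that peak (kb, log scale), for replicate 1 (left) and replicate 2 (right), with points spread vertically by up to 0.2 for visibility. The number grows with width, from a median of 1 under 2 kb to 5 and 6 from 5 kb upwards, with a maximum of 15 in each replicate. Wider peaks have room for more series-wide peaks.

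The longest chain in the series-wide list tied these scales together. By the same definition of a run it spanned 844015 to 912044 in the left arm, with 56 series-wide peaks that filled 48.5% of 68030 bp. Replicate 1 had 11 peaks over it and replicate 2 had 12, filling 56.2% and 67.3%. Most of it lies in the window from 800001 to 900000, which was covered at 28.9% in replicate 1 and 38.7% in replicate 2. The left arm as a whole was covered at 11.1% and 7.56%. Directly to the right of the chain follows the fifth of the long stretches without replicate peaks, of 117 kb.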

How the data were processed

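ChIP libraries were crosslinked in 1.85% formaldehyde for 30 min and sonicated in 14 rounds, per the labels' protocols. The deposited lists give positions on WormBase WS220, per the file headers. MACS is named in the source column of each replicate list and MACS v2 in that of the series-wide one, and BWA and ce10 are listed, per the submitters' processing notes. How the callers were set, with which control and filters, was not given in the sources used here. Each deposited peak carries a score by the authors that the headers leave undefined. It served to rank peaks within a list and to relate scores of paired peaks. Depth cannot be stated from these lists.

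Members, regions and rules were chosen with earlier results of these data known. Score percentiles were taken over all nuclear peaks of a list, without mitochondrial peaks (0 in replicate 1, 1 in replicate 2). Shared peaks had at least 1 bp in common, windows were 100 kb from position 1, and runs joined peaks at most 5 kb apart. Regions were named by rule: windows with the highest, lowest and most different coverage, runs with most peaks, longest free stretches, and strongest and widest pairs, unshared peaks and peaks with most pieces. The window from 800001, the peaks of 5000 bp or more and top 25% peaks without a partner, the largest step between windows and the split of sharing by score and zone were chosen after their values were seen. Alternatives were other score thresholds, overlap rules, windows, run definitions and boundaries, omission of either replicate, and values from the series-wide list. Interval procedures were checked on simulated lists. Computation used numpy 2.4.6, scipy 1.17.1, pandas 2.3.3 and matplotlib 3.10.9 under Python 3.11.15.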

Additional observations from a re-analysis of the deposited data

How the results depend on the processing

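When each list was limited to its top 50% by score, III was covered at 12.5%, held 25.8 peaks per Mb with a median width of 4146 bp, 36.6% of them 5000 bp or more and 13.1% in runs, had a longest stretch free of peaks of 251 kb, and the replicates' correlation was 0.69 for scores and 0.84 for windows. A smaller list is part of the construction of these values. With peaks within 1 kb joined there were 37.9 per Mb, with a median width of 3475 bp and 32.2% of 5000 bp or more. In the series-wide list coverage was 15.5%, the longest free stretch 131 kb and the left-to-right arm ratio 0.662, against 0.610 ± 0.0393 in the replicate lists; with each arm taken as 1 of 3 equal zones it was 0.769. The mean shared share of 78.9% became 67.0% with 50% of each peak in common, where the score correlation was 0.85, and 37.4% with midpoints within 250 bp. Window correlations were 0.87 at 50 kb, 0.84 at 200 kb and 0.86 with windows shifted by 50 kb. The share of peaks in runs was 25.4% with a joining distance of 2 kb, 63.3% with 10 kb, 70.5% with runs of 2 or more and 15.4% with runs of 5 or more. In the top 25% by score were 26.6% of III peaks. The cause of changes not fixed by construction was not tested. No ratio changed sides of 1 in its mean. Of 35 alternatives, 9 moved a value by less than the SD of the replicates and 26 by more, counting any change as more where a result had no SD. Leaving out either replicate, 16 alternatives for 8 results, gives the other library's value and cannot move a mean of 2 beyond its SD: coverage ran from 16.9% to 17.5% and the centre-to-arm ratio from 1.46 to 2.29. No paired analysis was possible because only ChIP libraries have values here, and the input libraries carrying the same numbers have none. Without read depth, its limits on these values are not known.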
